A study of Nannochloropsis oceanica with 18 samples.

Results

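Short regions are those among the merged ChIP-seq regions of Nannochloropsis oceanica IMET1, an oil-rich marine microalga, whose width (end minus start plus 1) was under 1000 bp. They were chosen by width alone, and 535 of the 3803 regions, or 14.1%, met the rule. Together they covered 377591 bp, which was 1.73% of all bases in regions. The limit fell within a continuous range of widths, since the 3 widest members measured 999, 999 and 996 bp and the 3 regions just above it measured 1000, 1000 and 1001 bp. Their H3K27ac ratios in C0 (defined below) were 1.04, 2.43 and 2.16 just inside the limit and 0.329, 0.924 and 1.41 just outside it. Regions are given by chromosome, start and end as the deposited tables number them, because the sources used here do not give the genome build, and no gene was assigned to a region.

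The study used chromatin immunoprecipitation sequencing for H3 lysine 27 acetylation (H3K27ac), lysine crotonylation (Kcr) and H3 lysine 36 dimethylation (H3K36me2). The alga was grown in nitrogen-replete medium (C0) or moved to nitrogen-free medium for 1 day (N1) or 2 days (N2), a treatment under which it stores lipid. All 3 groups were the same wild-type strain, and the labels list 2 libraries for every mark in every condition. Cells of N1 and N2 had also been washed, transferred and kept under weaker light than C0, so nitrogen, transfer and light cannot be told apart. The labels and the study's methods name different antibodies, and a single catalogue number stands in the labels for H3K27ac and H3K36me2, so which antibodies were used is unknown.

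Acetylation and crotonylation of histone lysines are acyl marks laid down by acyltransferases from acetyl-CoA and crotonyl-CoA, and in other eukaryotes they mark the promoters of active genes. Dimethylation of H3 lysine 36 is in many eukaryotes a mark of transcribed gene bodies and lies mostly downstream of the acyl marks. Broad peak calling joins neighbouring enriched stretches, so a region can range from a single nucleosome-scale block to a domain over many genes.

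For each library the tables gave a coverage signal (pileup) over the region and a background expected there (lambda). The level of a mark is given below as the ratio of pileup to background, with 0.5 added to both, so that 1 is the background, and a group's level is the geometric mean of its libraries. Values were identical in the pair for H3K36me2 in C0 and in the pair for Kcr in N2, and each of these pairs entered as a single library. In the other 7 groups the libraries of a pair differed by less than the sampling noise of independent counts (chi-square divided by its degrees of freedom 0.751 to 0.846 over short regions), although a summary such as the highest coverage of a region also varies less than a count. Each group was therefore counted as 1 sample, no SD is given, and the p-values below compare these libraries, whose spread may be technical. Within a condition the background of the 3 marks ran nearly together over short regions (r of log2 lambda 0.981 to 1.00), so the ratios of the marks share their denominator.

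Short regions were shallow. Every pileup was a whole multiple of a step fixed for the library (within 0.05 of a step), and the median over short regions was 21 to 120 steps per library, against 99 to 302 over longer regions. The SD of the log2 difference between the libraries of a pair was 0.176 to 0.384 in short regions and 0.141 to 0.219 in longer ones. The fitted standard errors were correspondingly wider, with a median of 0.20 for H3K27ac and 0.18 for Kcr in N1 against C0, where all regions had 0.11 for both marks.

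Widths ran from 379 to 999 bp with a median of 708 bp, against 3004 bp over all regions. The shortest member was on chromosome 12 (74390 to 74768), with an H3K27ac ratio of 0.238 and an H3K36me2 ratio of 1.34 in C0. Short regions were found on all 30 chromosomes, making up 8.04% of the regions on chromosome 15 (9 of 112) and 22.4% on chromosome 30 (17 of 76). Gaps to the nearest region had a median of 708 bp (547 bp over all regions), and 221 of the 535 lay within 500 bp of another region. Of all 535 members, 57 had a nearest region that was itself short, and the median width of the nearest region was 2750 bp. Near the ends of the covered part of chromosomes, within 50000 bp of the outermost region end, lay 75 of the 535 short regions and 474 of all 3803 regions.

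Most short regions carried acyl marks below the background. In C0 the median H3K27ac ratio over short regions was 0.576, against 2.55 over all regions, and 341 members (63.7%) were under 1 while 85 (15.9%) reached 2. Kcr behaved alike in C0, with a median ratio of 0.726 against 2.54, 317 members under 1 and 126 at 2 or more. H3K36me2 had a median of 1.07 in C0 against 1.17 over all regions, and no member reached 2. The medians of the separate libraries lay close together, at 0.588 and 0.541 for H3K27ac in C0 and at 0.733 and 0.715 for Kcr in C0. Since the peaks that set the widths were called on these libraries, these levels are a description and were not tested.

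Acyl levels were higher in wider regions inside the short class as well. The 351 regions under 800 bp had a median H3K27ac ratio of 0.433 in C0, and the 184 regions from 800 bp up to the limit had 1.20. Regions from 1000 to under 2000 bp (974) had 1.95, and those of 12000 bp or more (479) had 3.74. For Kcr in C0 the same steps were 0.591, 1.74, 2.28 and 3.09. H3K36me2 did not follow this order, as its median was 1.17 under 800 bp, 0.889 and 0.890 in the next pair of classes and 1.28 in the widest class. Across the 535 members, which share their libraries and background, log2 width and the log2 ratio in C0 had r = 0.398 for H3K27ac, 0.410 for Kcr and -0.105 for H3K36me2.

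**Figure D1:**
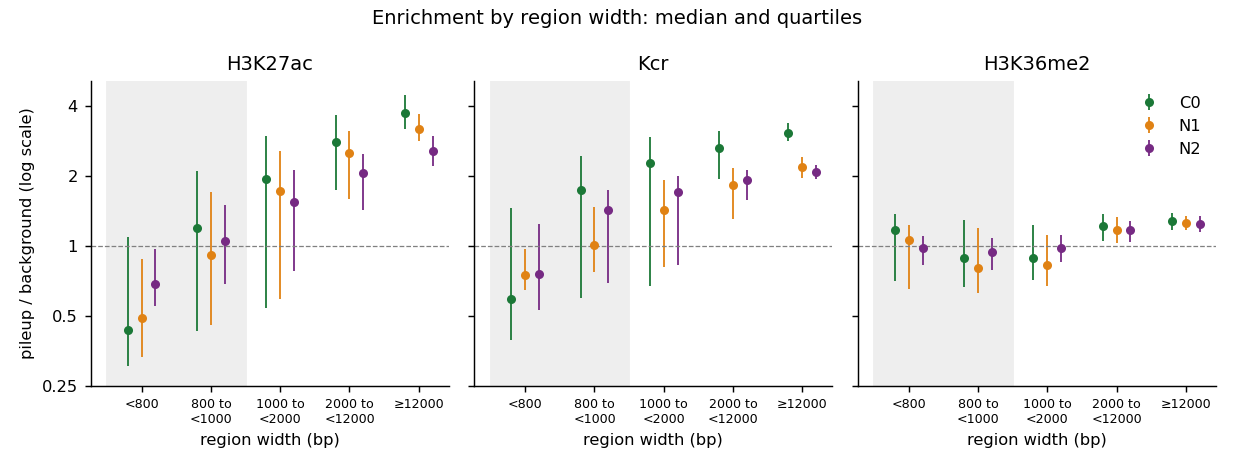
Median ratio of pileup to background (points, log axis) with quartiles over regions (lines) by region width in bp, for each mark in C0, N1 and N2; the grey band covers the short regions and the dashed line is the background. H3K27ac in C0 climbs from 0.433 under 800 bp to 3.74 at 12000 bp or more, whereas H3K36me2 stays between 0.802 and 1.28 throughout.

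The highest lay on chromosome 15 (573092 to 573882), 791 bp wide, with ratios of 4.95 and 4.79 in the C0 libraries, a Kcr ratio of 2.96 and an H3K36me2 ratio of 0.530. It stood apart from the next, on chromosome 3 (1121286 to 1122274), which had 3.76 for H3K27ac and 3.06 for Kcr. The next 4 had H3K27ac ratios of 3.38 to 3.74 and lay on chromosome 2 (978863 to 979704), on chromosome 25 (91041 to 91755), at 316085 to 317075 of chromosome 24, and on chromosome 18 (156284 to 157185). Across all 3 conditions, 9 members held an H3K27ac ratio of at least 2 and 4 held a Kcr ratio of at least 2. Longer regions that held these levels were not counted.

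At the bottom, chromosome 23 (594 to 1534) had the lowest H3K27ac ratios in C0, 0.153 and 0.181, with Kcr at 0.338 and H3K36me2 at 0.185. It lay at the start of the numbered sequence and 13095 bp from the nearest other region. The next lowest, chromosome 5 (19316 to 19984), chromosome 9 (30125 to 31092) and chromosome 22 (668063 to 668455), had H3K27ac ratios of 0.177 to 0.200, but their H3K36me2 ratios were 0.953, 1.21 and 1.33. The highest H3K36me2 ratios in C0 were 1.79 on chromosome 17 (141503 to 142295), 1.76 on chromosome 14 (11353 to 12199), 1.74 on chromosome 6 (424235 to 424812) and 1.69 on chromosome 2 (1293008 to 1293526), and all 4 had H3K27ac ratios of 0.302 to 0.433.

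Sorting the members by their levels in C0 gave 2 large kinds. The larger held 273 regions with H3K27ac under 1 and H3K36me2 at 1 or more, which was 80.1% of the 341 regions low in H3K27ac, with medians of 0.351 for H3K27ac, 0.448 for Kcr and 1.36 for H3K36me2. Their nearest neighbours had a median H3K27ac ratio of 2.81. This kind is not particular to short regions, since 92.3% of longer regions under 1 in H3K27ac, and 86.7% of those from 1000 to under 2000 bp, had H3K36me2 at 1 or more, with neighbours at medians of 2.77 and 2.84. The acetylated kind was the reverse: of the 85 members with H3K27ac at 2 or more, 73 (85.9%) had H3K36me2 under 1, against 32.1% of longer regions at that H3K27ac level and 83.1% of those from 1000 to under 2000 bp. Among the 109 members with H3K27ac between 1 and 2, 103 (94.5%) had H3K36me2 under 1. The remaining 68 members were under 1 for both marks, and 11 of them lay over 5000 bp from any other region, of 21 such members in all.

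The marks were accordingly ordered against each other in short regions. H3K27ac and Kcr had r = 0.931 over the 535 members in C0, with 0.919 and 0.889 in N1 and N2. H3K27ac and H3K36me2 had r = -0.451 in C0, with -0.454 and -0.230 in N1 and N2, whereas the 3268 longer regions had -0.152, -0.113 and 0.0625. These values describe regions that share libraries and a common background, and they were not tested. No r was computed for regions from 1000 to under 2000 bp, whose marks were similarly opposed in C0. Of those under 1 in H3K27ac, 86.7% had H3K36me2 at 1 or more, and of those at 2 or more, 83.1% had it under 1. Of the 535 members, 288 were under 1 in H3K27ac and Kcr in all 3 conditions, 134 were at 1 or more in all of them, and 21 were under 1 for every mark and condition. Longer regions were not counted in this way.

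**Figure D2:**
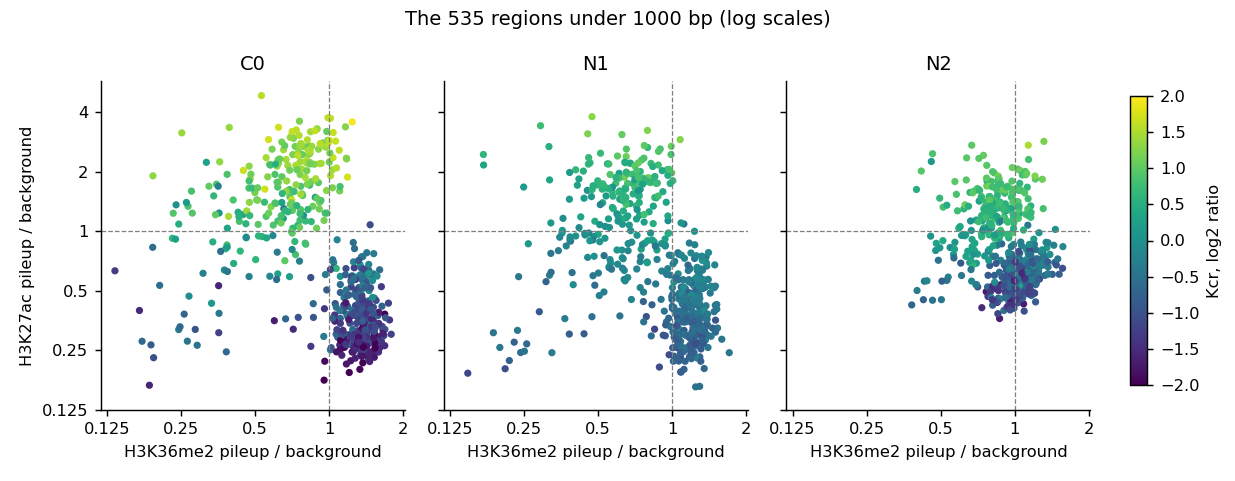
H3K27ac ratio (vertical) against H3K36me2 ratio (horizontal), both on log axes, for the 535 short regions in C0, N1 and N2, coloured by the log2 Kcr ratio; each point is 1 region. In C0 a dense cloud at H3K36me2 above 1 and H3K27ac below 1 (273 regions) faces a looser, crotonylated cloud at H3K36me2 below 1. The spread of each mark is smaller in N2 than in C0.

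Levels of short regions spread less in the deprived cells, as did those of all regions. For H3K27ac the SD of the log2 ratio over the members was 1.21 in C0, and it was 1.05 and 0.66 in N1 and N2. It was 1.16, 0.54 and 0.77 for Kcr, and 0.74, 0.66 and 0.36 for H3K36me2. Over all regions the SDs in the same order were 1.38, 1.23 and 0.85 for H3K27ac, 1.13, 0.70 and 0.74 for Kcr, and 0.52, 0.50 and 0.32 for H3K36me2, so the narrowing is not particular to short regions. Few regions exchanged a high level for a low one: of the 85 members at 2 or more for H3K27ac in C0, 5 were under 1 in N1 and 1 in N2, while 30 and 13 stayed at 2 or more. Of the 2328 regions of any width at that level, 14 and 6 were under 1 and 2038 and 1640 stayed at 2 or more. Of the 341 members under 1 in C0, 1 reached 2 in N1 and 0 in N2. Kcr moved in the same way, with 8 of 126 strongly crotonylated members under 1 in N1 and 0 in N2, and 12 and 14 still at 2 or more, where 1217 and 1281 of 2496 regions of any width stayed.

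**Figure D3:**
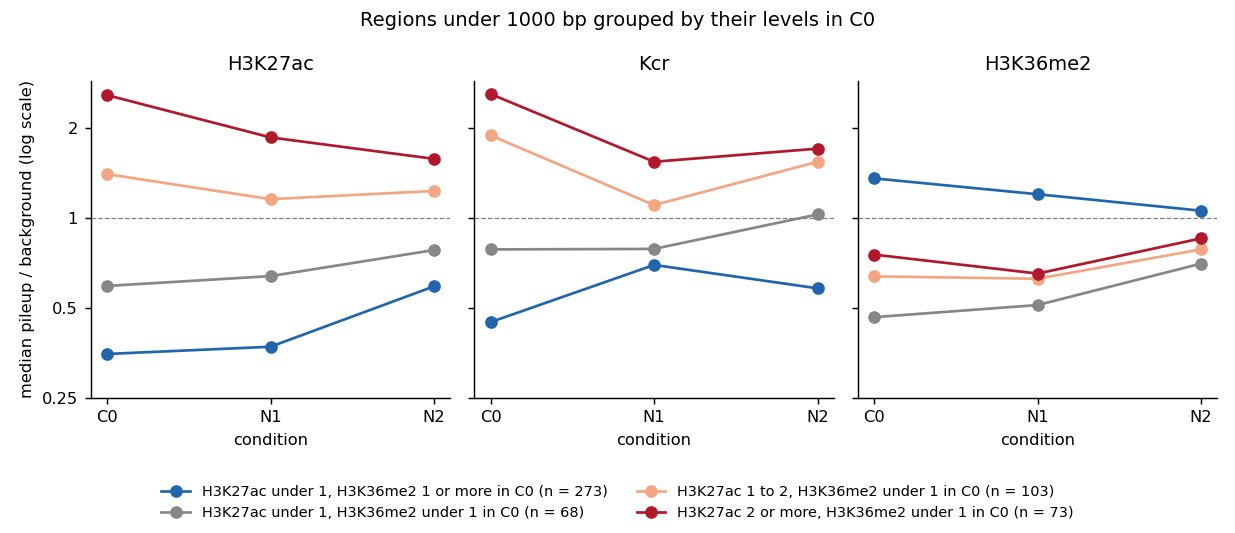
Median ratio (log axis) in C0, N1 and N2 of 4 groups of short regions formed by their H3K27ac and H3K36me2 ratios in C0, with 1 panel per mark. The group of 273 goes from 0.351 to 0.371 and 0.590 in H3K27ac and from 1.36 to 1.20 and 1.06 in H3K36me2, and the group of 73 goes from 2.58 to 1.86 and 1.58 in H3K27ac; the grouping used C0, so movement away from C0 levels is a description.

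The comparison of N1 with C0 asked how the marks stood after 1 day without nitrogen. For H3K27ac, 63 short regions were called higher (background 14.3% of all regions, members 11.8%) and 128 lower (background 37.2%, members 23.9%), by limma-trend with p-values adjusted after Benjamini and Hochberg over all 3803 regions and called under 0.05. The median log2 difference over members was -0.06, against -0.13 over all regions, and 11 of the higher and 28 of the lower calls reached a difference of 1 on the log2 scale. Over all 3803 regions, 63 higher and 136 lower calls reached it. After centring the differences on the median of all regions, the split was 102 higher and 92 lower and the median over members turned to 0.07, and pileup alone gave 128 higher and 68 lower with a median of 0.20. The count of higher calls was 37 without the second C0 library.

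The largest H3K27ac increase in N1 belonged to chromosome 20 (745629 to 746402), with ratios of 0.402 and 0.466 in the C0 libraries. It stood at 1.59 and 1.82 in the N1 libraries and at 1.48 and 1.60 in the N2 libraries. The log2 difference between N1 and C0 was 1.97 ± 0.16 (SE, adjusted p = 5.4e-09), and Kcr was called higher as well, by 0.58 ± 0.14. Chromosome 1 (1432826 to 1433811) rose in the same manner, from 0.705 and 0.496 in C0 to 1.64 and 1.80 on day 1 and 1.77 and 1.88 on day 2, with Kcr called higher by 0.82 ± 0.14 on day 1. Chromosome 27 (75608 to 76178) had 0.597 and 0.631 in C0 and 1.89 and 1.80 in N1. These regions passed from below the background to above it and stayed there on day 2.

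An increase mostly gone by day 2 was seen on chromosome 24 (287889 to 288819). Its H3K27ac ratio was 1.21 and 1.20 in C0, 2.99 and 3.19 in N1 and 1.16 and 1.25 in N2, a log2 difference of 1.36 ± 0.12 in N1 against C0 (adjusted p = 1.7e-08) and of -1.36 ± 0.12 in N2 against N1 (adjusted p = 2.4e-07). Kcr there was 1.78, 2.06 and 1.50, and its difference between N1 and C0 did not pass the threshold (0.21 ± 0.11), although after centring on all regions it was 0.63 and passed (adjusted p = 2.7e-05). Chromosome 16 (52188 to 53009) had 0.632 and 0.551 in C0, 1.64 and 1.59 in N1 and 0.983 and 1.04 in N2, while its Kcr ratios of 1.18 and 0.991 in C0 and N1 were not called. The sixth named increase, chromosome 20 (258367 to 259296), had 0.927, 2.22 and 1.60. Loss of part of the gain by N2 was called in these 3 regions, but on chromosome 20 the difference of -0.47 between N2 and N1 became -0.33 after centring and was no longer called (adjusted p = 0.061).

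The largest H3K27ac decrease in N1 was on chromosome 2 (394993 to 395926), from 2.36 and 2.54 in C0 to 0.792 and 0.618 in N1, with 1.06 and 1.25 in N2. The log2 difference in N1 was -1.81 ± 0.16 (adjusted p = 1.2e-08) and Kcr was lower too, by -1.42 ± 0.15. Chromosome 14 (268909 to 269509) had 1.22 and 1.26 in C0 and 0.438 and 0.351 in N1, and its N2 libraries, at 0.767 and 1.20, reached back towards C0. Chromosome 24 (309326 to 309998) did so too, with 1.40, 0.494 and 1.04. Chromosome 7 (1247118 to 1247708) had 1.51, 0.473 and 0.764, and chromosome 3 (932203 to 932975) had 2.43, 0.897 and 1.19. The member highest in C0, on chromosome 15 (573092 to 573882), dropped from 4.95 and 4.79 to 1.72 and 1.89 in N1 and to 1.25 and 1.44 in N2.

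On day 2 the short regions differed in their balance of calls from the series as a whole. For H3K27ac in N2 against C0, 248 members (46.4%) were called higher against a background of 23.6%, and 124 (23.2%) were called lower against 54.2%. The median difference was 0.39 over members and -0.31 over all regions, and 69 higher and 20 lower calls reached 1 on the log2 scale. Over all 3803 regions, 243 higher and 259 lower calls did. The balance shifted with width inside the class: under 800 bp 53% were higher and 17.4% lower (median 0.54). From 800 bp up to the limit the shares were 33.7% and 34.2% (median 0.11). Regions from 1000 to under 2000 bp had 29.2% and 45.7% (median -0.17). Centring on all regions gave 333 higher and 75 lower calls, and setting every library to equal medians and spreads gave 218 and 66. When the 10% of regions with the lowest pileup were left out, 356 members were tested, 96 were higher and 124 lower, and their median turned to -0.03.

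The direction of H3K27ac went with the C0 level of Kcr. That level comes from other libraries but tracks the C0 level of H3K27ac (r = 0.931 over members). The latter enters the difference with or without the background, so this sorting is a description and not an independent test. Of the 317 members with a Kcr ratio under 1 in C0, 230 were called higher for H3K27ac in N2 and 3 lower, with a median difference of 0.71. The 662 longer regions at that Kcr level gave 492 higher and 6 lower and a median of 0.79. Of the 218 members with Kcr at 1 or more, 18 were higher and 121 lower (median -0.40), and the longer ones had a median of -0.49. Pileup alone, without the background that the marks share, gave 273 higher and 1 lower among the 317. The whole class has many regions of the first kind, since 59.3% of short regions were under 1 for Kcr in C0. The difference between short and longer regions within a Kcr level was not tested.

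Members with the largest H3K27ac increase in N2 came mostly from the lowest end. The first of them had C0 pileups of only 4.17 and 2.61, against medians of 9.67 and 8.85 over members. The C0 level enters the difference used for ranking, so the ranking itself favours low starts. Chromosome 5 (19316 to 19984) went from 0.216 and 0.144 in C0 through 0.377 and 0.307 in N1 to 0.608 and 0.829 in N2, a difference of 2.01 ± 0.25 (adjusted p = 4.9e-07). Chromosome 23 (594 to 1534) had 0.576 and 0.620 in N2, 1.85 ± 0.23 above C0 (adjusted p = 6.7e-07). Chromosome 19 (158495 to 159101) had 0.254 and 0.252 in C0 and 0.809 and 0.740 in N2, and chromosome 9 (30125 to 31092) had 0.193, 0.348 and 0.562. All 4 stayed below the background in N2, unlike chromosome 20 (745629 to 746402) and chromosome 1 (1432826 to 1433811), which were also among the 6.

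The largest decreases in N2 came from acetylated members. Chromosome 15 (573092 to 573882) had the largest, -1.86 ± 0.10 (adjusted p = 1.6e-11). On chromosome 6 (68187 to 68985) the C0 libraries had 2.94 and 3.05 and the N2 libraries 0.744 and 1.37, and on chromosome 16 (166119 to 167027) they had 3.20 and 3.39 against 1.24 and 1.33. Chromosome 4 (1205359 to 1206077) was at 2.15 and 2.25 in C0 and 1.93 and 1.61 in N1, a difference that was not called, and then at 0.778 and 1.09 in N2. Chromosome 27 (97895 to 98676) had 1.85, 0.799 and 0.747, and chromosome 8 (38871 to 39384) had 1.29, 0.757 and 0.537. These 6 regions were chosen for this difference, so the gap between their C0 and N2 libraries adds no support. The same choice favours regions with high C0 levels.

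Between the deprived days, H3K27ac in N2 against N1 gave 231 members higher (43.2%, background 19.6%) and 67 lower (12.5%, background 41.7%), with a median of 0.39 against -0.15 over all regions. Centring gave 283 and 39, and equal medians and spreads 235 and 25. By width, 47.6% were higher and 9.12% lower under 800 bp, and 34.8% and 19% from 800 bp up to the limit. Regions from 1000 to under 2000 bp had 24.7% and 31.8%. The named increases were chromosome 22 (658656 to 659175), from 0.221 and 0.122 in N1 to 0.582 and 0.522 in N2, chromosome 23 (594 to 1534) and chromosome 8 (1230460 to 1231326), from 0.165 and 0.312 to 0.608 and 0.806. Among the decreases, chromosome 15 (401552 to 402417) had 2.43 and 2.10 in C0, 2.70 in each N1 library and 1.09 and 1.23 in N2, a fall of -1.22 ± 0.12 (adjusted p = 3.2e-07), and chromosome 14 (470024 to 470932) had 1.21, 1.68 and 0.765. Over the members left by the filter on low pileup the counts were 92 and 66.

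**Figure D4:**
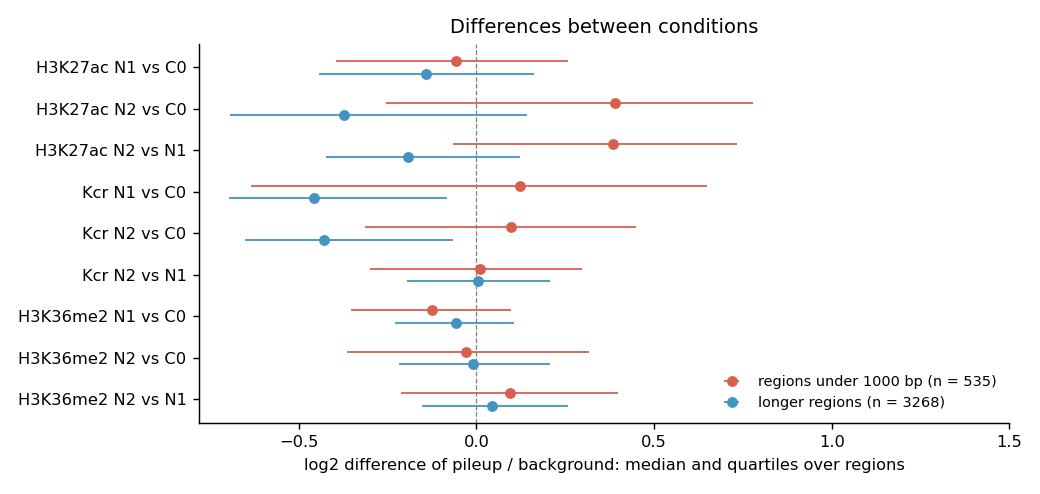
Log2 difference of the ratio between conditions, as the median (points) and quartiles (lines) over the 535 short regions and the 3268 longer regions, for each mark and pair of conditions. H3K27ac in N2 against C0 has a median of 0.39 in short and -0.37 in longer regions, whereas for H3K36me2 the medians of short and longer regions lie within each other's quartiles.

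Kcr divided the short regions more evenly on day 1. In N1 against C0, 201 members (37.6%) were called higher where the background was 16.4%, and 197 (36.8%) were called lower where it was 64.1%. The median was 0.12 over members and -0.43 over all regions, and 57 higher and 44 lower calls reached 1 on the log2 scale. Over all 3803 regions, 120 higher and 250 lower calls did. The balance differed by width: under 800 bp 44.4% were higher and 27.9% lower (median 0.30). From 800 bp up to the limit the shares were 24.5% and 53.8% (median -0.41). Regions from 1000 to under 2000 bp were close to the latter, with 20.3% and 59.4% (median -0.41). The split was 296 to 112 after centring and 345 to 64 with equal medians and spreads, whereas pileup alone gave 136 to 219 and turned the median to -0.08. With the 10% of lowest pileup left out, 363 members gave 64 higher and 196 lower calls and a median of -0.39.

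The direction of Kcr went with the H3K27ac level in C0. That level tracks the C0 level of Kcr (r = 0.931 over members). The latter enters the difference with or without the background, so this sorting too is a description. Of the 341 members with H3K27ac under 1, 199 rose in Kcr and 23 fell (median 0.51), and of the 194 at 1 or more, 2 rose and 174 fell (median -0.75). The longer regions had medians of 0.45 and -0.56 at these levels. Pileup alone gave 135 higher and 34 lower in the first set and 1 and 185 in the second. Of the 201 Kcr increases among short regions, 199 therefore lay in members low in acetylation. Longer regions were alike in this, as 369 of their 423 Kcr increases lay at that level.

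Named Kcr increases in N1 all started under the background and from little signal. The C0 level enters the ranked difference, so the ranking favours such starts. Kcr pileup in C0 was 2.05 and 4.14 on chromosome 5 and 3.08 to 5.98 in the others. The medians over members were 13.8 and 12.9 in the C0 libraries. Chromosome 5 (19316 to 19984) had 0.109 and 0.199 in C0, 0.622 and 0.631 in N1 and 0.481 in N2, a difference of 2.09 ± 0.25 in N1 (adjusted p = 1.9e-08). Chromosome 8 (1230460 to 1231326) had 0.191 and 0.198 in C0 and 0.681 and 0.587 in N1, and chromosome 9 (30125 to 31092) had 0.178 and 0.208 in C0 and 0.628 and 0.607 in N1. The others were chromosome 16 (299553 to 300065), chromosome 1 (760190 to 760767) and chromosome 24 (600839 to 601426), with Kcr ratios of 0.216 to 0.263 in C0 and 0.656 to 0.807 in N1. None of the 6 reached the background, and all 6 were lower in N2 than in N1 by value, which passed the test in N2 against N1 on chromosome 9 (-0.83 ± 0.27, adjusted p = 0.030) and chromosome 1 (-0.80 ± 0.26, adjusted p = 0.030).

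Kcr decreases in N1 were sharp in crotonylated members, which a ranking by the difference from C0 favours. Chromosome 22 (60498 to 61444) fell from 2.60 and 2.68 in C0 to 0.625 and 0.738 in N1 and stood at 1.28 in N2, a difference of -1.96 ± 0.14 (adjusted p = 4.7e-12), while its H3K27ac ratio of 1.27 in C0 went to 0.893. Chromosome 27 (97895 to 98676) had 2.94 and 2.63 in C0 and 0.957 and 0.857 in N1. On chromosome 16 (54914 to 55846) Kcr was 2.52, 0.912 and 1.62, and on chromosome 1 (1288579 to 1289359), 29 bp from a region of 20193 bp, it was 3.34, 1.27 and 1.65. Chromosome 3 (932203 to 932975) and chromosome 2 (394993 to 395926), named above for H3K27ac, completed the 6.

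**Figure D5:**
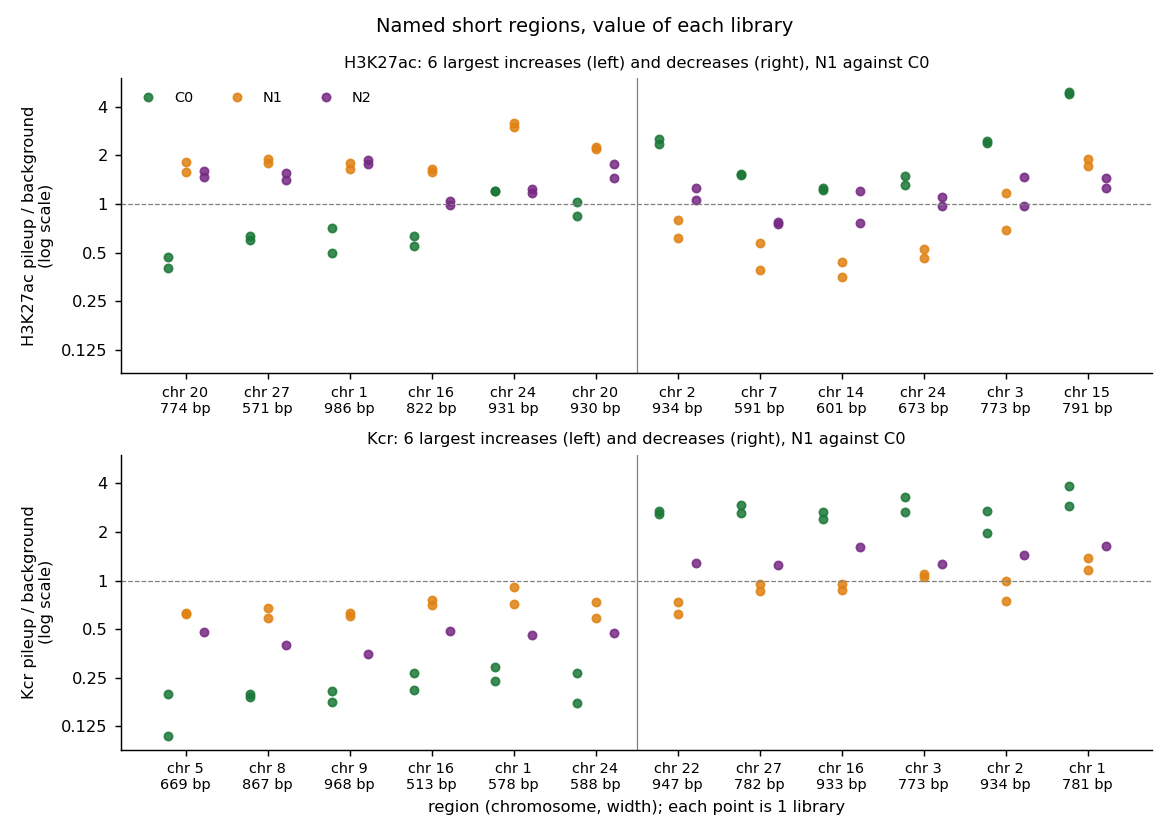
Ratio of each library (points, log axis) in C0, N1 and N2 for the 6 short regions with the largest increase and the 6 with the largest decrease in N1 against C0, for H3K27ac (top) and Kcr (bottom); labels give chromosome and width. The regions were chosen for the difference between C0 and N1, so the gap between those points adds no support. The 6 Kcr increases stay under the dashed background line.

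On day 2 fewer Kcr differences were called. The N2 group held a single distinct Kcr library, so every Kcr test with N2 takes its spread from C0 and N1 and assumes that the lone library varies like them. In N2 against C0, 102 members (19.1%) were higher against a background of 7.52% and 123 (23.0%) lower against 56.1%, with a median of 0.10 over members and -0.38 over all regions. Centring gave 229 and 38, pileup alone 143 and 80, equal medians and spreads gave 45 and 87 with a median of -0.12, and the filter on low pileup gave 54 and 123 with a median of -0.14. Of the 341 members with H3K27ac under 1 in C0, 100 were higher and 7 lower, and of the other 194, 2 were higher and 116 lower. Longer regions divided alike, with 160 higher and 3 lower of 691 under 1, and 24 higher and 2008 lower of 2577 at 1 or more. Chromosome 5 (19316 to 19984) again led the increases (1.71 ± 0.30, adjusted p = 2.0e-05), followed by chromosome 19 (651337 to 651803), with 0.314 and 0.319 in C0 and 0.795 in N2. Chromosome 3 (412416 to 412924) led the decreases, from 1.84 and 1.72 to 0.734 (-1.28 ± 0.20, adjusted p = 2.9e-06), and chromosome 7 (1097302 to 1098277) fell from 3.14 and 3.06 to 1.44.

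In N2 against N1 the Kcr counts depended on the scaling. By the ratio, 73 members (13.6%) were higher against a background of 11.4% and 21 (3.93%) lower against 7.47%, with a median of 0.01 over members and over all regions. Lower calls numbered 59 and 57 without the first or the second C0 library, 9 and 8 without the first or the second N1 library, and 339 with equal medians and spreads, which left 35 higher and a median of -0.78. Pileup alone went the other way, with 228 higher, 3 lower and a median of 0.38. The clearest return was on chromosome 30 (267884 to 268808), with Kcr at 1.57 and 2.41 in C0, 0.745 and 0.807 in N1 and 1.81 in N2 (1.23 ± 0.20 between the deprived days, adjusted p = 1.2e-04). Chromosome 16 (806568 to 807085) had 0.231, 0.672 and 0.317, but its fall in N2 was no longer called when either N1 library was left out.

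H3K27ac and Kcr calls were also counted together. In N1 against C0, 105 members were lower for both marks, which was 82.0% of the H3K27ac decreases and 53.3% of the Kcr decreases, and 33 were higher for both, 52.4% and 16.4% of the respective lists. Over all regions these shares were 93.1% and 54.0% for decreases and 31.4% and 27.4% for increases. Opposite calls were found in 15 members: 9 had higher H3K27ac with lower Kcr and 6 the reverse, where all regions gave 168 and 13. In N2 against C0, 95 were lower for both (76.6% and 77.2%) and 85 higher for both (34.3% and 83.3%). The shares over all regions were 88.0% and 85.1% for decreases and 26.7% and 83.9% for increases. In this comparison 2 members had higher H3K27ac with lower Kcr and 0 the reverse, where all regions gave 33 and 2. The ratios share a background, and the overlap was not tested.

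H3K36me2 changes were smaller in size but touched many short regions. The C0 group held a single distinct H3K36me2 library, so every H3K36me2 test with C0 takes its spread from N1 and N2 and assumes that the lone library varies like them. In N1 against C0, 48 members (8.97%) were higher against a background of 7.23% and 132 (24.7%) lower against 15.1%, with a median of -0.13 over members and -0.07 over all regions. Of these, 4 increases and 1 decrease reached 1 on the log2 scale, where all regions gave 8 and 4. Without the first or the second N1 library 83 and 71 members were lower, and 28 were higher without the second. Centring gave 59 higher and 94 lower, equal medians and spreads 30 and 38, and the filter on low pileup 19 and 108. Pileup alone gave 0 higher and 507 lower, and the scale of the C0 library differed: its median pileup over members was 34.6 and its median background 31.2, against 16.4 and 16.5 in the first N1 library. The ratio cancels a shift that both share.

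Chromosome 7 (1182517 to 1183210) had the lowest H3K36me2 ratio in C0, 0.134, with 0.320 and 0.372 in N1 and 0.478 and 0.501 in N2, a difference of 1.36 ± 0.22 in N1 (adjusted p = 5.0e-06) and of 1.87 ± 0.22 in N2 (adjusted p = 2.5e-09). Its H3K27ac ratio was 0.632, 0.799 and 0.714 and was not called, although after centring the differences from C0, 0.47 in N1 and 0.49 in N2, passed. Chromosome 8 (424041 to 424508) rose from 0.610 in C0 to 1.29 and 1.37 in N1 and fell back to 0.862 and 0.798 in N2. The third increase was on chromosome 19 (780636 to 781528), with 0.383, 0.770 and 0.627. With pileup alone none of these 3 increases was called, and the first and the last turned to -0.12 and -0.09. Among the decreases, chromosome 29 (219755 to 220410) went from 1.45 to 0.728 and 0.642 in N1, a difference of -1.08 ± 0.14 (adjusted p = 5.4e-08), and stood at 1.10 and 0.979 in N2, and the others were on chromosome 3 (978806 to 979632) and chromosome 16 (651630 to 652208).

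In N2 against C0, H3K36me2 was called higher in 120 members (22.4%, background 16.3%) and lower in 161 (30.1%, background 19.4%), with a median of -0.03 over members and -0.01 over all regions. Increases of 1 or more on the log2 scale were seen in 28 members and decreases of that size in 0. All regions gave 55 and 0. Pileup alone, on the differing scale of the C0 library, gave 21 and 400, equal medians and spreads gave 78 and 94, and the filter on low pileup gave 34 and 159 with a median of -0.26. By acetylation in C0, the 341 members with H3K27ac under 1 had a median difference of -0.27, and the 194 at 1 or more had 0.28. Longer regions had a median of -0.23 under 1 and of 0.04 at 1 or more. Within these levels the sign followed the C0 level of H3K36me2 itself, which enters the difference. With H3K27ac under 1, the median was -0.35 for the 273 members with H3K36me2 at 1 or more and 0.62 for the 68 under 1. With H3K27ac from 1 to 2 it was -0.15 (6 members) and 0.40 (103). At H3K27ac of 2 or more it was -0.05 (12) and 0.22 (73). These splits were not tested.

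The named decreases of H3K36me2 in N2 began above the background. The C0 level enters the difference used for ranking, so the ranking favours high starts for decreases and low starts for increases. Chromosome 25 (479951 to 480364) had 1.36 in C0, 0.969 and 0.815 in N1 and 0.714 and 0.757 in N2 (-0.88 ± 0.14 in N2, adjusted p = 2.7e-06). Chromosome 12 (1046201 to 1046671) had 1.43, 1.08 and 0.779, and chromosome 2 (1519150 to 1519899) had 1.52, 1.05 and 0.850. The increases began low, on chromosome 13 (134864 to 135467) at 0.169 in C0 and 0.566 and 0.643 in N2, and on chromosome 23 (594 to 1534) at 0.185 in C0 and 0.592 and 0.624 in N2.

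From N1 to N2, H3K36me2 rose in 188 members (35.1%, background 27.1%) and fell in 121 (22.6%, background 17.2%), with a median of 0.09 over members and 0.05 over all regions. Lower calls were 73 and 72 without the first or the second N1 library. Pileup alone gave 287 and 24, and the filter on low pileup left 373 members, of which 78 rose and 115 fell, with a median of -0.09. The 73 members with a ratio under 0.5 in C0 were higher in 56 cases and lower in 0, with a median difference of 0.65. Their median ratios were 0.355, 0.392 and 0.628 in the order C0, N1, N2. The count of members under 0.5 was 73 in C0 and 16 in N2. Longer regions at that level were not counted. Over all regions the SD of the log2 ratio was 0.50 in N1 and 0.32 in N2, so this rise is not shown to be particular to short regions.

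The largest rises between the deprived days were isolated regions at the outer parts of chromosomes. Chromosome 23 (594 to 1534) had 0.167 and 0.131 in N1 and 0.592 and 0.624 in N2, a difference of 2.04 ± 0.19 (adjusted p = 1.4e-12). Chromosome 9 (1270136 to 1270670), 8733 bp from its neighbour, went from 0.186 and 0.236 to 0.673 and 0.663, and chromosome 10 (1558 to 2294), 14072 bp from its neighbour, had 0.182 and 0.193 and then 0.535 and 0.487. In all 3, H3K27ac and Kcr were called higher in the same comparison, with H3K27ac differences of 1.64, 1.47 and 1.55. The largest fall, on chromosome 4 (506 to 1081), was also at a chromosome start, from 1.28 and 1.45 to 0.818 and 0.788 (-0.76 ± 0.11, adjusted p = 3.4e-08).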

How the data were processed

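Chromatin immunoprecipitation libraries of Nannochloropsis oceanica IMET1 were sequenced for 3 marks in 3 conditions, with 18 labelled libraries. Per the study's methods, reads passed through a modified nf-core/chipseq pipeline (Trim Galore, BWA, Picard, deepTools) with MACS2 in broad mode for peaks over input, while diffReps served for differential peaks. The sources used here give no versions, genome build or rule for merging peaks. The authors deposited, for each region and library, a coverage signal (pileup) and a local background (lambda), in 9 tables with the same regions and values, of which 1 was used. Per-library scores, the authors' fold changes, p-values and status, and 36 columns of 12 libraries without a label were not used.

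The value analysed was log2(pileup + 0.5) minus log2(lambda + 0.5), an offset that understates changes of low values. Differences were fitted per mark over its distinct libraries with limma-trend (limma 3.58.1, R 4.3.3; residual df 3 for H3K27ac and 2 for Kcr and H3K36me2), and p-values were adjusted over 3803 regions and called under 0.05. The procedure was tested on simulated data. Depth per library is given in the report in pileup steps, which bound the precision. Tables and plots were made with Python 3.11.15, pandas 2.3.3, numpy 2.4.6 and matplotlib 3.10.9.

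The members and lists were chosen with earlier results of these data known. Regions were named by rank: for H3K27ac and Kcr the 6 largest increases and decreases against C0 among calls kept after centring, otherwise the 3 largest, plus the extremes of level and width. Not all of the ranked regions are described. Alternatives were centring, equal medians and spreads, a pseudocount of 1, leaving out the 10% of regions with lowest pileup, pileup alone, no trend, a replicate block, a width limit of 800 bp, and leaving out each library. Same-numbered libraries did not deviate together.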

Additional observations from a re-analysis of the deposited data

How the results depend on the processing

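Counts of short regions called moved by more than 1.5 times under these settings, and the cause was not tested. Centring on the median of all regions gave 102 higher for H3K27ac in N1 against C0, 75 lower in N2 against C0 and 39 lower in N2 against N1, and for Kcr 112 lower in N1 against C0 and 229 higher and 38 lower in N2 against C0. Equal medians and spreads gave 66 and 25 lower for H3K27ac in N2 against C0 and against N1. For Kcr they gave 345 higher and 64 lower in N1 against C0, 45 higher in N2 against C0, and 35 higher and 339 lower in N2 against N1. For H3K36me2 they gave 30 higher and 38 lower in N1 and 78 higher and 94 lower in N2, both against C0. Leaving out the 10% of regions with lowest pileup tests fewer members. It left 96 and 92 higher for H3K27ac in N2 against C0 and N1, 64 and 54 higher for Kcr in N1 and N2 against C0, 7 lower for Kcr in N2 against N1, and 19, 34 and 78 higher for H3K36me2 in N1 against C0, N2 against C0 and N2 against N1. Without the trend, 37 were higher for Kcr in N2 against N1. Pileup alone gave 128 higher and 68 lower for H3K27ac in N1 against C0, 80 lower for Kcr in N2 against C0 and 228 higher and 3 lower in N2 against N1. For H3K36me2 it gave 0 higher and 507 lower in N1, 21 higher and 400 lower in N2, both against C0, and 287 higher and 24 lower in N2 against N1. It turned the H3K36me2 differences in N1 of chromosome 19 from 780636 to -0.0944 and of chromosome 7 from 1182517 to -0.125.

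A width limit of 800 bp moved the median ratios to 0.433, 0.488 and 0.686 for H3K27ac in C0, N1 and N2, to 0.591, 0.752 and 0.755 for Kcr, and to 1.17, 1.06 and 0.983 for H3K36me2. Leaving out each library gave 37 to 63 higher for H3K27ac in N1 against C0, 8 to 59 lower for Kcr in N2 against N1, 28 to 48 higher and 71 to 127 lower for H3K36me2 in N1 against C0, and 72 to 99 lower in N2 against N1, where a group left with 1 library was assumed to vary like the others. The replicate block, with 62 higher for H3K27ac in N1 against C0, moved no count by more than 1.5 times, and deviations of same-numbered libraries had r of -0.0228 to 0.0344, so the numbers were not read as pairs. A pseudocount of 1 moved no count by that much. Shallow pileup limits what short regions can show, and groups counted as 1 sample leave differences between cultures unmeasured.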
